A study of Mus musculus with 6 samples.

Results

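Hepatic enzymes of amino acid breakdown were examined in MYC-driven mouse liver tumors after inhibition of PRMT5. The set holds 39 listed genes of 47643 in the deposited table, chosen by gene symbol as enzymes that degrade amino acids in liver; all 39 were found, each on a single row, and all 39 passed the filter on low counts. The tumors came from FVB/N mice of the LAP-tTA-tetO-MYC line, in which the liver-selective LAP promoter drives a doxycycline-controlled activator that turns on a MYC transgene once the drug is removed. All animals drank doxycycline (100 mg/L) up to 4 weeks of age and then had MYC on for 8 weeks. For 2 further weeks 1 group was dosed with vehicle and the other with 50 mg/kg/day GSK3326595, which blocks the enzyme PRMT5, and each group has 3 libraries of total RNA. Every sample thus carries active MYC, and normal liver and MYC-off liver are not analysed here. The extraction protocol speaks of liver, the sample labels of liver tumor. Replicates carry numbers only, and whether each is its own animal is not said; the p-values reflect variation among the samples at hand, which may be technical.

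The liver is the main site where surplus amino acids are broken down. Tyrosine is cut to fumarate and acetoacetate, tryptophan is opened to kynurenine, histidine is converted to glutamate, and serine, glycine and the sulfur amino acids feed one-carbon and cysteine metabolism. Branched-chain amino acids are oxidised in mitochondria by a dehydrogenase complex and the enzymes downstream of it. Several of these genes, Tat and Tdo2 among them, are classic markers of the mature hepatocyte and respond to glucocorticoids, and the enzymes are zoned within the lobule, with Hal and Sds around the portal vein and Oat around the central vein.

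The libraries held 25814339 to 33621083 expected counts. GSK3326595 replicate 2 stood apart, at 103 on the first principal component (38.1% of the variance), where the other 5 lay between -50.2 and 9.37. On the second component (28.9%) GSK3326595 replicate 3, which held the fewest counts, was lowest at -67.7, and the others lay between -33.8 and 51.3. Vehicle replicate 3, at -7.52 and -25.9 on these components, lay beside GSK3326595 replicate 1, at -5.33 and -33.8. Vehicle replicates 1 (-50.2 and 33.0) and 2 (-49.5 and 51.3) lay far from both. Of 10 hepatocyte markers (Alb, Apoa1 and others), 9 were found and none was at 0. Their summed level was 19631 to 42199 CPM (counts relative to the library total, scaled by TMM) in vehicle and 10553 to 33853 CPM in GSK3326595, the lowest library being GSK3326595 replicate 3. Prmt5, the drug's target, averaged 67.9 ± 18.0 CPM with vehicle and 92.4 ± 39.4 with the inhibitor (SD, n = 3 each), which says nothing of the enzyme's activity.

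Across the 39 enzymes, 4 had lower values in GSK3326595 at an unadjusted p under 0.05 by edgeR's quasi-likelihood test, and 0 had higher values. These were Fah, Sdsl, Cbs and Ivd. Over all 17012 genes tested, 3.81% were lower and 5.45% higher at that level, against 10.3% and 0 of the enzymes. No enzyme passed after adjustment over all genes, where 0% of genes did; the smallest adjusted p among the enzymes was 0.458, and DESeq2, which called 1.69% of all genes (1.1% higher and 0.591% lower), called 0 of the 38 enzymes to which it gave an adjusted p. The count of 4 depended on single libraries: leaving out vehicle replicate 1, vehicle replicate 2 or GSK3326595 replicate 3 each gave 1, and leaving out GSK3326595 replicate 1 gave 2. It came to 7 when vehicle replicate 3 was dropped and to 12 when GSK3326595 replicate 2 was. The groups did not overlap in 3 enzymes, Sdsl, Cbs and Ivd, or 7.69%, all lower. Of all genes 14.4% did not overlap, 7.66% lower and 6.72% higher.

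Promoter sequences are shown for the lower members that have an entry in the RefSeq promoter table (GRCm38.p6), to set the regulatory letters beside the values. Of the 39 genes 33 matched by symbol; Cdo1, Cth, Sds, Ido2, Sdsl and Kynu have no entry. Each sequence runs 5′ to 3′ on the gene's strand, within the 250 bases before the RefSeq start and short of any GENCODE exon, and capitals mark matches on either strand to CACGTG (the E-box that MYC with MAX can bind) or CCAAT.
Fah, chr7:84605943-84606192, minus strand: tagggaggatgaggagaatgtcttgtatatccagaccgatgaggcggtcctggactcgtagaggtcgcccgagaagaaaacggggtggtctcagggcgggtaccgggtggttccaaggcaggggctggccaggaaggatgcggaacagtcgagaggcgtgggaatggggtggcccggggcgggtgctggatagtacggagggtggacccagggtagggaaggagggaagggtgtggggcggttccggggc
Cbs, chr17:31637239-31637455, minus strand: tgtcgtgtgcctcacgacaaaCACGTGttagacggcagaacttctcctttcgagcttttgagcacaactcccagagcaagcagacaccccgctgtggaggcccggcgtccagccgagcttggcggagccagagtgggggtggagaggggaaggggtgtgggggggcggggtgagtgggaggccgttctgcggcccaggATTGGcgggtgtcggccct
Ivd, chr2:118861744-118861953, plus strand: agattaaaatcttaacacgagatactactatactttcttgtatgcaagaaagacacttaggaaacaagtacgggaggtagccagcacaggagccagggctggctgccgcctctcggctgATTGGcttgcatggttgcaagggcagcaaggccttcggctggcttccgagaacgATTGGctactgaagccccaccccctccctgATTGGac
The Cbs stretch holds the CACGTG 229 to 224 bases before its start and 1 CCAAT on the opposite strand. The Ivd stretch holds 3 CCAAT matches, all on the opposite strand, and the Fah stretch holds neither motif. The Fah stretch lies inside the GENCODE span of the gene but outside its exons, while the other two stretches lie just before theirs. CACGTG was found in 1 of the 33 matched genes (Cbs, 3.03%) and in 6.02% of the 32851 promoters of the table over the same 250 bases. CCAAT was found in 18 of 33 (54.5%) and in 33.8% of all. For every motif a gene counted if any promoter listed for it matched, whereas the share of all is per promoter. The shares are thus not like for like. Of 5 other motifs searched on both strands, TATAAA was found in 5 of 33 genes (12.4% of all promoters) and CAAAGTCCA, an HNF4-type site, in 1 (0.384%). TGACGTCA (1.55% of all promoters), TTGCGCAA (0.164%) and an HNF1-type palindrome (0.00913%) were found in 0. None of the matches printed overlaps another.

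Individual libraries differed far more than the groups. GSK3326595 replicate 2 had the highest value of all 6 libraries for 20 of the 39 enzymes (51.3%, against 22.0% of all genes tested), and GSK3326595 replicate 3 the lowest for 26 (66.7%, against 20.5%). Replicate 3 lay below every vehicle library for 31 enzymes (34% of all genes), and replicate 2 above every vehicle library for 22 (34.1% of all genes). Replicate 1 lay below every vehicle library for 20 (33.3% of all genes) and above for 9 (30.9%). The SD of log2 CPM was larger in GSK3326595 than in vehicle for 33 of 39 enzymes (84.6%), with medians of 0.98 and 0.36; over all genes tested it was larger for 75.4%, with medians of 0.43 and 0.26. Summed over the 39 enzymes, the libraries held 5396, 5439 and 3924 CPM in vehicle and 4541, 7152 and 2390 CPM in GSK3326595. The GSK3326595 libraries therefore held both the highest and the lowest total.

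**Figure D1:**
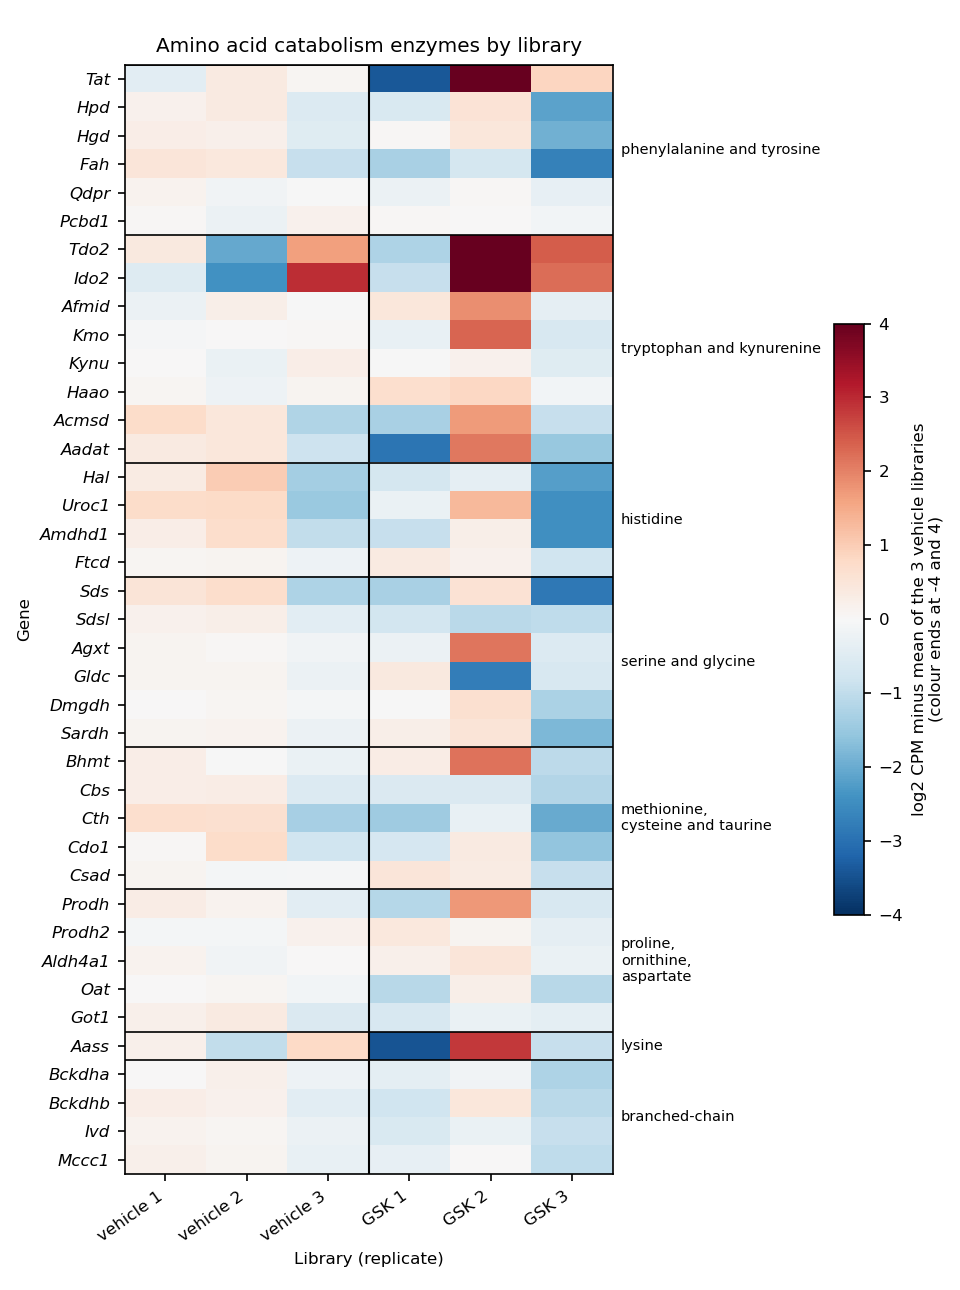
Colour shows log2 CPM of each of the 39 enzymes (rows, by pathway) in each of the 6 libraries (columns), minus the mean of the 3 vehicle libraries; the scale is clipped at equal limits on both sides. GSK3326595 replicate 2 is highest for 20 enzymes and GSK3326595 replicate 3 lowest for 26. The SD of log2 CPM is larger among the treated than among the vehicle libraries for 33 enzymes. Vehicle replicate 3 still lies well below vehicle replicates 1 and 2 in some rows, such as Hal and Cth.

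With all 6 libraries 15 enzymes had a log2 difference above 0 and 24 below 0, with a median of -0.08, where the median of all genes tested was 0.03. Without GSK3326595 replicate 2, 7 lay above and 32 below, with a median of -0.61 (0.06 over all genes). In that fit 12 enzymes had lower values at an unadjusted edgeR p under 0.05, or 30.8%, against 4.46% of 17401 genes. Higher values at that level were found for 0 enzymes and 5.59% of genes. Those 12 were Fah, Aadat, Amdhd1, Sds, Sdsl, Cbs, Cth, Prodh, Oat, Bckdha, Bckdhb and Ivd. None passed edgeR's adjustment over all genes there either (smallest adjusted p 0.459; 0% of all genes). Without GSK3326595 replicate 3 the median was 0.24 instead, with 1 enzyme lower and 4 higher at an unadjusted edgeR p under 0.05. Replicate 2 was singled out from these same data and was highest for 20 of the 39 enzymes, so leaving it out tends to lower the differences. The shares found without it, here and for the gene lists below, are therefore descriptive only. Where the pathway paragraphs below leave out a library, it is GSK3326595 replicate 2, not replicate 3.

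**Figure D2:**
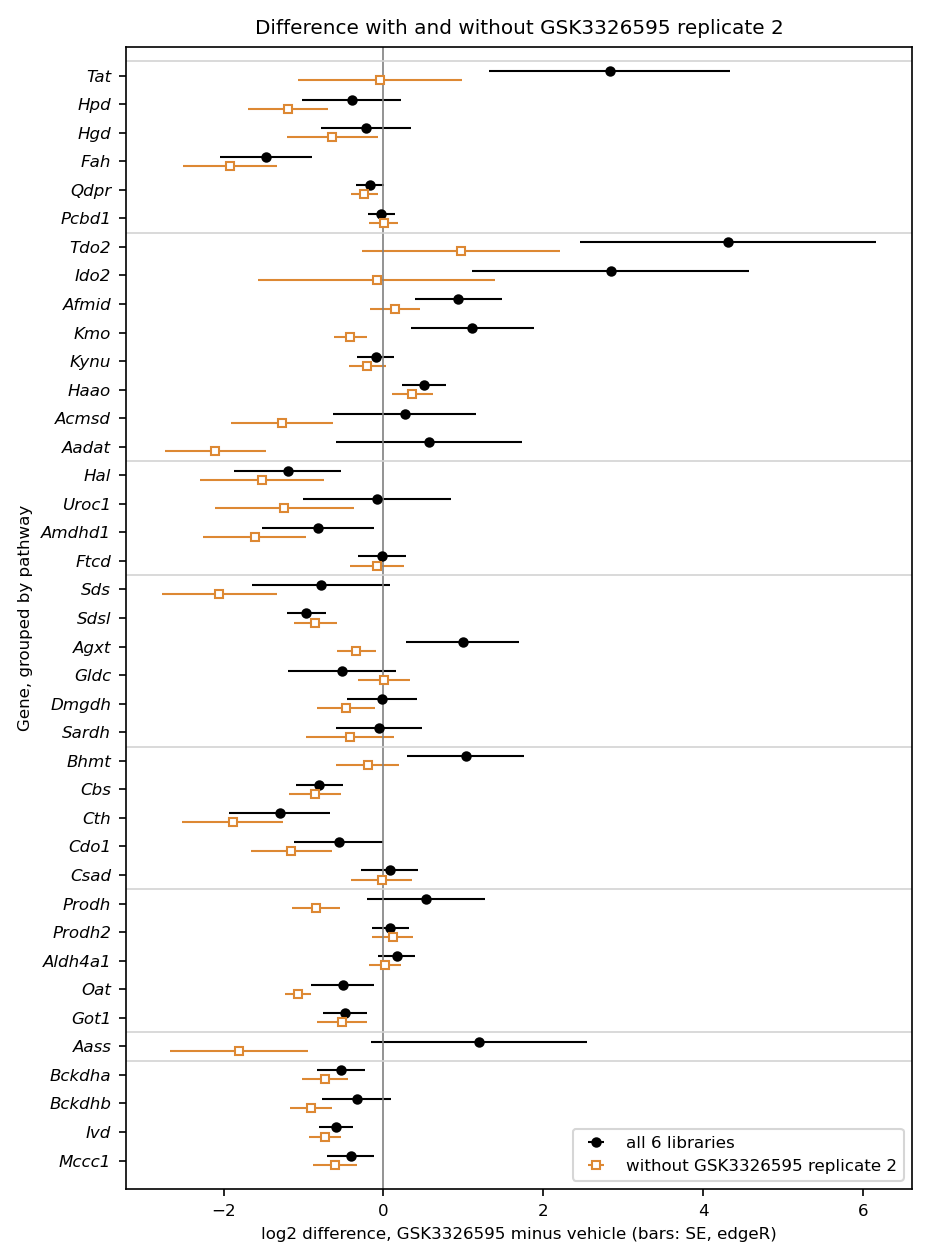
Points give the edgeR log2 difference of GSK3326595 minus vehicle for each enzyme with its SE as bars, from all 6 libraries (filled circles) and without GSK3326595 replicate 2 (open squares). Leaving that library out moved Tat, Ido2, Kmo, Agxt, Bhmt, Prodh, Aadat, Acmsd, Csad and Aass from above to below 0 and Pcbd1 and Gldc from below to just above it, while Sdsl, Cbs and Ivd stayed below it.

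In the phenylalanine and tyrosine pathway 5 of 6 enzymes had log2 differences below 0, with a median of -0.19 (-0.44 without replicate 2), and the lowest was that of the last enzyme. Fah, fumarylacetoacetate hydrolase (ENSMUSG00000030630.16; chromosome 7, 84585159 to 84606722, minus strand; mm10), had 406, 393 and 154 CPM in vehicle and 119, 180.1 and 45.1 CPM in GSK3326595. Vehicle replicate 3 was nearer the treated libraries than the other vehicle libraries, and the groups overlapped through it. The log2 difference was -1.47 ± 0.57 (SE; edgeR adjusted p = 0.524) and -1.92 ± 0.59 without GSK3326595 replicate 2. Tat, tyrosine aminotransferase and the entry step (chromosome 8, 109990437 to 109999803, plus strand), had 11.7, 19.9 and 16.4 CPM in vehicle and 1.48, 312 and 28.1 CPM in GSK3326595. The treated libraries thus included both the lowest and the highest value, and the log2 difference of 2.83 ± 1.5 (edgeR adjusted p = 0.613) became -0.04 ± 1.03 without replicate 2. Hpd, which makes homogentisate, spanned 88.6 to 574 CPM and Hgd, which opens its ring, 39.6 to 207 CPM, each lowest in GSK3326595 replicate 3 and highest in replicate 2. Their differences were -0.40 ± 0.62 and -0.21 ± 0.56, and -1.19 ± 0.50 and -0.64 ± 0.57 without replicate 2. The pterin-recycling enzymes were the steadiest of the whole set: Pcbd1 spanned 126 to 166 CPM (log2 difference -0.03 ± 0.17) and Qdpr 113 to 158 CPM (-0.17 ± 0.18).

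Tryptophan breakdown held the widest ranges. Tdo2, the dioxygenase that commits tryptophan to kynurenine in hepatocytes (chromosome 3, 81957090 to 81976202, minus strand), had 9.56, 1.77 and 22.6 CPM in vehicle and 3.06, 635 and 39.1 CPM in GSK3326595. Its highest library was 359 times its lowest, and GSK3326595 replicate 1 lay inside the vehicle range. The log2 difference of 4.32 ± 1.85 (edgeR adjusted p = 0.548) was 0.97 ± 1.24 without replicate 2. Ido2, a second dioxygenase, was scarce, with 0.127, 0.0340 and 1.40 CPM in vehicle and 0.0967, 10.4 and 0.866 CPM in GSK3326595. Its lowest library held 1 expected count. The fitted difference was 2.84 ± 1.73 (edgeR adjusted p = 0.656), and -0.08 ± 1.48 without replicate 2.

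Downstream of them, GSK3326595 replicate 2 was again the highest library for Afmid, the formamidase (46.9 CPM; 10.1 to 17.9 in the other 5), Kmo, the 3-monooxygenase (89.0; 11.3 to 18.1), Aadat, an aminotransferase of kynurenine and 2-aminoadipate (15.7; 0.484 to 4.97), and Acmsd, which diverts the pathway from NAD synthesis (6.51; 0.806 to 3.35). Without that library the differences were 0.14 ± 0.31 for Afmid, -0.42 ± 0.21 for Kmo, -2.10 ± 0.63 for Aadat and -1.27 ± 0.64 for Acmsd. Kynu and Haao varied less. Kynu, kynureninase, spanned 34.7 to 58.3 CPM (-0.10 ± 0.23), and Haao, the 3-hydroxyanthranilate dioxygenase, averaged 111 ± 12.7 CPM with vehicle and 158 ± 50.3 with the inhibitor (SD, n = 3 each; a difference of 0.51 ± 0.27, edgeR adjusted p = 0.615). Of the 8 tryptophan enzymes 7 had a log2 difference above 0 with all libraries, with a median of 0.76, and 3 without replicate 2, with a median of -0.14.

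The 4 histidine enzymes all had log2 differences below 0, with a median of -0.45 (-1.38 without replicate 2). Hal, which deaminates histidine (chromosome 10, 93488768 to 93519304, plus strand), had 66.3, 107 and 20.3 CPM in vehicle and 32.4, 40.6 and 11.5 CPM in GSK3326595. Vehicle replicate 3 lay among the treated values, and the difference was -1.20 ± 0.67 (edgeR adjusted p = 0.634), and -1.52 ± 0.77 without replicate 2. Uroc1, the next enzyme, ranged from 16.5 to 224 CPM, lowest in GSK3326595 replicate 3 and highest in replicate 2, with a difference of -0.08 ± 0.93, and -1.24 ± 0.87 without the latter. Amdhd1, which cuts the ring, had 40.3, 54.2 and 16.8 CPM in vehicle and 17.6, 39.4 and 6.10 CPM in GSK3326595 (-0.82 ± 0.70; -1.61 ± 0.64 without replicate 2). Ftcd, which passes the one-carbon unit to folate, had a difference of -0.02 ± 0.31 (-0.08 ± 0.34 without replicate 2).

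Among the serine and glycine enzymes, Sdsl gave the smallest p of the 39. Sdsl, a relative of serine dehydratase (ENSMUSG00000029596.13; chromosome 5, 120458186 to 120472810, minus strand), had 28.1, 28.9 and 18.5 CPM in vehicle and 14.9, 11.6 and 12.1 CPM in GSK3326595. Every treated library lay below every vehicle library, and the 3 treated values were close together. The difference was -0.97 ± 0.25 on the log2 scale (edgeR adjusted p = 0.458; DESeq2 adjusted p = 0.0541), and -0.85 ± 0.27 without replicate 2. Sds, the serine dehydratase itself, overlapped between groups, with 59.5, 67.2 and 17.8 CPM in vehicle and 16.8, 61.2 and 5.77 CPM in GSK3326595. Its difference was -0.79 ± 0.86 with all libraries and -2.06 ± 0.72 without replicate 2. Gldc, the decarboxylase of the glycine cleavage system, was low in GSK3326595 replicate 2, with 74.4 CPM there against 321 to 664 CPM in the other 5 libraries. Its difference was -0.52 ± 0.67, and 0.00 ± 0.32 without that library. Agxt, which converts glyoxylate to glycine, showed the reverse, with 43.2 CPM there and 6.67 to 10.5 CPM elsewhere (0.99 ± 0.71; -0.34 ± 0.24 without it). Dmgdh and Sardh, which strip methyl groups from dimethylglycine and sarcosine, had differences of -0.01 ± 0.44 and -0.05 ± 0.54, and both were lowest in GSK3326595 replicate 3 (56.6 and 105 CPM) and highest in replicate 2 (214 and 532 CPM). Without replicate 2 their differences were -0.47 ± 0.36 and -0.42 ± 0.55.

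Of the 5 sulfur amino acid enzymes 2 had log2 differences above 0 and 3 below, with a median of -0.56, and all 5 were below 0 without replicate 2. Cbs, cystathionine beta-synthase, which draws homocysteine toward cysteine (ENSMUSG00000024039.14; chromosome 17, 31608894 to 31637238, minus strand), had 206, 208 and 117 CPM in vehicle and 115, 115 and 75.2 CPM in GSK3326595. The groups did not overlap, by a narrow margin between vehicle replicate 3 and the upper treated libraries. The difference was -0.80 ± 0.29 (edgeR adjusted p = 0.522) and -0.85 ± 0.33 without replicate 2. Cth, the next enzyme (chromosome 3, 157894248 to 157925077, minus strand), had 147, 146 and 37.3 CPM in vehicle and 34.8, 76.5 and 23.2 CPM in GSK3326595. Vehicle replicate 3 again sat with the treated libraries, and the difference was -1.30 ± 0.63 (edgeR adjusted p = 0.576), and -1.88 ± 0.63 without replicate 2. Bhmt, which remethylates homocysteine with betaine, instead had 261, 219.6 and 185 CPM in vehicle and 271, 984 and 106 CPM in GSK3326595 (1.03 ± 0.73; -0.20 ± 0.40 without replicate 2). Cdo1, the cysteine dioxygenase, ranged from 65.6 to 325 CPM (-0.56 ± 0.56; -1.15 ± 0.50 without replicate 2). Csad, which makes hypotaurine, ranged from 154 to 406 CPM (0.08 ± 0.36; -0.02 ± 0.39 without replicate 2).

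**Figure D3:**
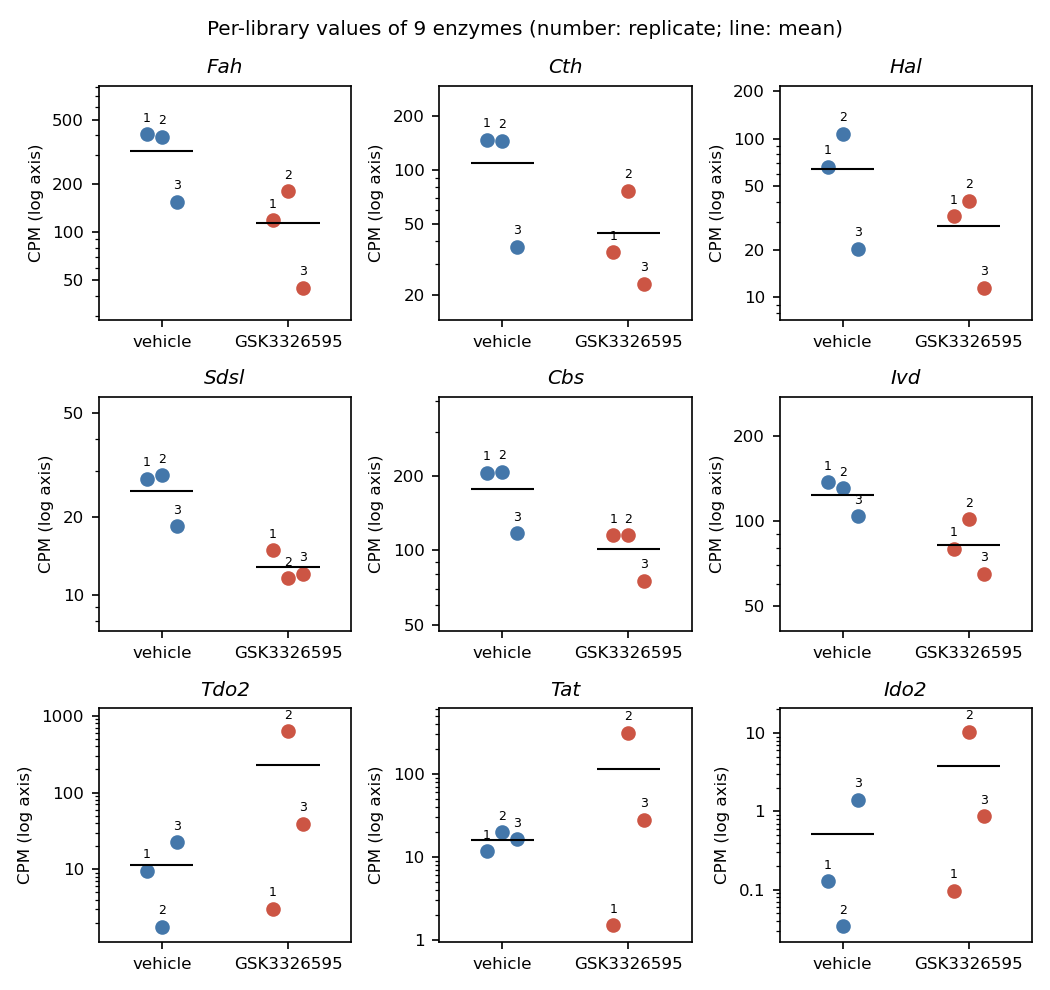
CPM on log axes of the 9 enzymes that had an unadjusted p under 0.05, did not overlap between groups or had the 3 highest or 3 lowest log2 differences; points are libraries with their replicate number and lines are group means. Sdsl, Cbs and Ivd separate the groups, vehicle replicate 3 joins the treated libraries for Fah, Cth and Hal, and GSK3326595 replicate 2 is the high point for Tdo2, Tat and Ido2.

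Enzymes of proline, ornithine and aspartate had a median log2 difference of 0.09 with all libraries and -0.52 without replicate 2. Prodh, the mitochondrial proline oxidase, had 113 CPM in GSK3326595 replicate 2, against 25.1 to 41.5 CPM in vehicle and 15.5 and 21.8 CPM in the other treated libraries. Its difference was 0.53 ± 0.74, and -0.84 ± 0.30 without that library. Prodh2, the hydroxyproline dehydrogenase, was steady at 144 to 248 CPM (0.09 ± 0.23), as was Aldh4a1, which finishes both routes, at 247 to 418 CPM (0.17 ± 0.23). Oat, ornithine aminotransferase, had 50.0 and 50.3 CPM in GSK3326595 replicates 1 and 3 and 102 to 128 CPM in the other 4 libraries. Without replicate 2 it had the smallest p of the set (-1.07 ± 0.16, edgeR adjusted p = 0.459), but with it the difference was -0.51 ± 0.39. Got1, the cytosolic aspartate aminotransferase, spanned 56.8 to 115 CPM (-0.48 ± 0.27; -0.52 ± 0.32 without replicate 2). Aass, the first enzyme of lysine breakdown, ranged from 1.29 CPM in GSK3326595 replicate 1 to 101 CPM in replicate 2, with 7.21 to 24.5 CPM in vehicle (1.20 ± 1.35; -1.80 ± 0.87 without replicate 2).

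All 4 branched-chain enzymes had log2 differences below 0, with a median of -0.47 (-0.73 without replicate 2), and a range from -0.59 to -0.34. Ivd, isovaleryl-CoA dehydrogenase of leucine breakdown (ENSMUSG00000027332.11; chromosome 2, 118861954 to 118882909, plus strand), had 137, 131 and 104 CPM in vehicle and 79.8, 101 and 65.1 CPM in GSK3326595. The groups did not overlap, and only GSK3326595 replicate 2 came close to vehicle. The difference was -0.59 ± 0.22 (edgeR adjusted p = 0.522), and -0.73 ± 0.20 without replicate 2. Bckdha and Bckdhb, the subunits of the dehydrogenase's first component, had differences of -0.53 ± 0.30 and -0.34 ± 0.43, and Mccc1, a subunit of the carboxylase after Ivd, of -0.41 ± 0.30. Without replicate 2 these were -0.73 ± 0.29, -0.91 ± 0.27 and -0.61 ± 0.27, and 3 of the 4 had an unadjusted edgeR p under 0.05: Ivd, Bckdhb and Bckdha.

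A wider list of 53 genes from the same pathways, 49 of them tested, was described in the same way. By edgeR 2 had lower values at an unadjusted p under 0.05 (4.08%, against 3.81% of all genes) and 0 higher values; without GSK3326595 replicate 2 these were 11 and 0 (22.4%, against 4.46%). The median log2 difference was -0.17, or -0.34 without that library. Dbt, the transacylase core of the branched-chain dehydrogenase, had the smallest p, with 117, 109.8 and 86.7 CPM in vehicle and 64.9, 70.6 and 56.4 CPM in GSK3326595. Its groups did not overlap (-0.71 ± 0.18, edgeR adjusted p = 0.458). Pycr1, which makes proline, differed by -1.06 ± 0.39 (edgeR adjusted p = 0.522). Gcat, of threonine breakdown, differed by -0.43 ± 0.19 (edgeR adjusted p = 0.548) without overlap, and Gls2, the liver glutaminase, by -0.94 ± 0.41 (edgeR adjusted p = 0.549) with overlap. Of the 49 tested genes 3 were lower without overlap and 1 was higher without overlap, 8.16% together against 14.4% of all genes. Without replicate 2 the differences were -0.74 ± 0.20 for Dbt, -1.30 ± 0.40 for Pycr1, -0.28 ± 0.18 for Gcat and -1.29 ± 0.39 for Gls2.

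Per kilobase of all annotated exons of a gene, a rough scale for setting genes side by side, the vehicle tumors carried most Hpd (189.7 CPM per kb), Pcbd1 (181), Fah (143) and Cdo1 (129), and least Ido2 (0.143), Acmsd (0.820), Aadat (1.79) and Tdo2 (2.91). That length can exceed that of the transcript expressed, which lowers the value, so the order is approximate. Tdo2 reached 58.1 CPM per kb as the GSK3326595 mean, almost all of it from replicate 2. Over the 6 libraries the highest value was under 2 times the lowest for 5 enzymes (Pcbd1, Qdpr, Kynu, Aldh4a1 and Prodh2) and over 10 times for 7 (Sds, Uroc1, Aadat, Aass, Tat, Ido2 and Tdo2).

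Marker lists of other cells and of lobule zones moved with some of these values. Of 10 pericentral genes (Cyp2e1, Glul and others) 8 were tested, and their summed level was 230.1, 268 and 465 CPM in vehicle and 476, 2489 and 388 CPM in GSK3326595. The same library that was high for Tdo2 and Tat was thus high for this list, with 1909.7 CPM of Cyp2e1 against 4.05 to 212 CPM elsewhere. Its sum there was mostly Cyp2e1. Glul was highest in GSK3326595 replicate 1 (449 CPM, 289 in replicate 2) and Cyp27a1 in vehicle replicate 2, the remaining pericentral genes in GSK3326595 replicate 2. GSK3326595 replicate 2 was also the highest for 3 of 10 periportal genes: Cyp2f2 had 119 CPM there against 1.22 to 10.7 CPM elsewhere, Pck1 554 against 5.25 to 273, and Arg1 586 against 111 to 352. The summed periportal list had 18613, 22963 and 8598 CPM in vehicle and 14039, 18525 and 5262 CPM in GSK3326595, so its sum in that library lay within the vehicle range. That sum was mostly Alb and Cps1 (11714 and 3569 CPM in that library), and Alb is also among the hepatocyte markers, so the sum says little of the other periportal genes. Of 6 liver tumor and fetal genes 3 were lowest in that library: Afp (294 CPM, 3837 to 13207 elsewhere), Dlk1 (0.217, 27.9 to 56.5) and Igf2bp3 (69.1, 81.7 to 104). Gpc3, Igf2 and H19 were not, and the summed list, mostly H19, had 29037 to 50197 CPM in vehicle and 17623 to 41493 CPM in GSK3326595. Summed hepatocyte markers were low in the libraries with the lowest enzyme totals, at 19631 CPM in vehicle replicate 3 and 10553 CPM in GSK3326595 replicate 3. The other 4 had 30651 to 42199 CPM. Among these, GSK3326595 replicate 2, with the highest enzyme total, had 30651 CPM. GSK3326595 replicate 1, below every vehicle library for 20 enzymes, had 33853 CPM, within the vehicle range. Of 10 T and NK cell markers, 8 were tested and 8 did not overlap between groups, all higher in GSK3326595 (6.72% of all genes tested were). The summed level of the 10 was 5.67 to 8.03 CPM in vehicle and 16.6 to 34.7 CPM in GSK3326595, and 1 was at 0 in a library. Most were near the floor in vehicle: Cd2 (0.191, 0.306 and 0.209 CPM), Klrd1 (0.191, 0.170 and 0.119 CPM), Cd3g, Cd247, Nkg7 and Cd8a among those tested. These passed the filter on low counts only through the treated libraries, so their lack of overlap was partly set by the filter. Of the tested markers only Lck and Cd4 would have passed on the vehicle libraries. The count of 8 without overlap therefore rests mostly on genes the filter let in this way. Of 8 stellate cell and fibroblast markers 2 did not overlap, both higher (25%, against 14.4% of all genes in either direction and 6.72% higher). Their summed level was 133 to 529 CPM in vehicle and 586 to 786 CPM in GSK3326595. Summed levels of the remaining lists overlapped between groups: macrophage markers (8 tested) had 240.0 to 351 CPM with vehicle and 295.5 to 743 with the inhibitor, endothelial markers (7) 83.2 to 146 and 103 to 206, and biliary markers (4 of 6) 11.2 to 26.2 and 13.1 to 63.7. No marker of any list was at 0 in every library. In bulk RNA fewer cells of a type and less RNA per cell cannot be told apart, and the part of these lists in the enzyme values was not tested.

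**Figure D4:**
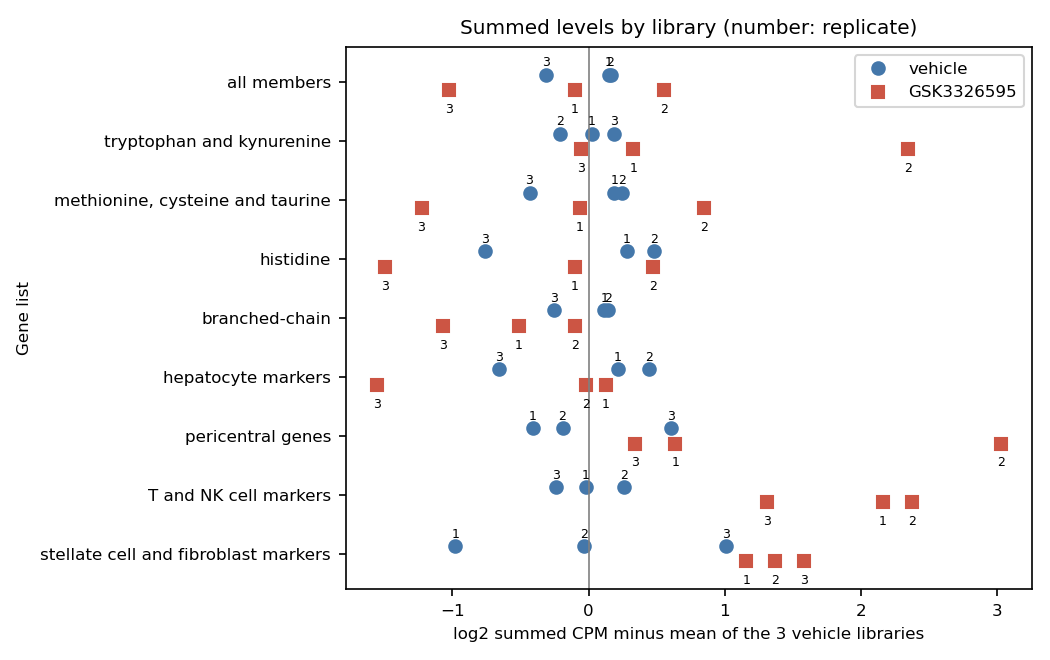
Each point is 1 library: log2 of the summed CPM of a gene list (rows) minus the mean of the 3 vehicle libraries, with the replicate number beside it. GSK3326595 replicate 2 is far right for tryptophan enzymes and pericentral genes, GSK3326595 replicate 3 is far left for the summed enzymes and hepatocyte markers, and T and NK cell markers separate the groups.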

How the data were processed

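Total RNA of mouse liver tumors was made into libraries with a stranded total RNA kit, per the labels' protocols. The deposited table gives unscaled expected counts per gene. Named tools are cutadapt, STAR, Picard and RSEM, without versions, and genome build mm10, per the submitters' processing notes. No source used here names the annotation release. Counting by strand is not stated: exons of 11 enzymes overlap another annotated gene, 9 of them only on the opposite strand, none being among the 9 enzymes given library by library as leading results (Tat, Fah, Tdo2, Ido2, Hal, Sdsl, Cbs, Cth, Ivd).

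Of 47643 gene IDs, 47224 matched GENCODE M21 (GRCm38) without version numbers, for positions and exon lengths. Expected counts were rounded. Genes passed filterByExpr (minimum count 10; 17012 kept), were scaled by TMM and tested with edgeR 4.0.16 (quasi-likelihood, two-sided, Benjamini-Hochberg over all genes, threshold 0.05) in R 4.3.3; DESeq2 1.42.0 and limma 3.58.1 (voom) were alternatives, and the 3 tools were tested on simulated data. The SE is the absolute log2 difference over the square root of F. With 3 against 3 libraries an exact permutation p cannot go below 0.1. Principal components and SDs of log2 CPM used a prior count of 2. Replicates differed by more than sampling noise. Enzymes and lists were chosen with earlier results of these data known, so lists have no test. Chosen for values in every library were enzymes with an unadjusted p under 0.05, no overlap between groups, or the 3 highest or lowest differences; of the wider list, the 4 of smallest p. Of the others, most are given by range; Amdhd1, Sds and Bhmt were also given in every library, a choice made after their values were seen. The symbol Tf matched no row of the table. One gene of the wider list is not reported here by name.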

Additional observations from a re-analysis of the deposited data

How the results depend on the processing

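By edgeR 0 genes were called higher and 0 lower after adjustment under each scaling, each filter, the replicate block and each left-out library, and limma-voom called 0 and 0. DESeq2 called 186 higher and 100 lower, none of them among the 38 enzymes with an adjusted p, and the cause was not tested. Enzymes with higher values at an unadjusted p under 0.05 numbered 0 with all libraries, 1 with no filter on low counts, 1 by DESeq2, and 0 to 4 without each library (4 without GSK3326595 replicate 3). Those with lower values numbered 4, or 5 with no filter on low counts, 5 by DESeq2 and 10 under the replicate block. Without each library they numbered 1 to 12, with fewer samples in each fit. The median log2 difference of the enzymes stayed within the spread between libraries, but it was 0.01 with no scaling beyond library totals, a scaling that put the all-gene median at 0.12 instead of 0.03, and -0.44 under the replicate block. Deviations of same-numbered libraries correlated at -0.07, 0.07 and 0.32, and those of unlike-numbered libraries from -0.43 to 0.32. So few libraries cannot settle whether the numbers pair, and the labels do not say so. The replicate numbers were therefore not used as a pairing in the results.

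Of 43 named genes (39 enzymes and 4 of the wider list), 23 kept the sign of their log2 difference under all 13 alternatives and 20 did not. It turned for 12 when GSK3326595 replicate 2 was dropped and for 8 when replicate 3 was, with 2 to 4 for each other library. For those whose sign turned without a library, the values ran over left-out libraries as follows: Tat from -0.043 to 3.41, Hpd from -1.19 to 0.056, Hgd from -0.64 to 0.24, Pcbd1 from -0.14 to 0.096, Ido2 from -0.081 to 5.50, Kmo from -0.42 to 1.57, Kynu from -0.22 to 0.090, Acmsd from -1.27 to 0.70, Aadat from -2.10 to 1.12, Uroc1 from -1.24 to 0.44, Ftcd from -0.24 to 0.27, Agxt from -0.34 to 1.42, Gldc from -1.35 to 0.0044, Dmgdh from -0.47 to 0.37, Sardh from -0.42 to 0.40, Bhmt from -0.20 to 1.52, Csad from -0.17 to 0.42, Prodh from -0.84 to 0.96, Prodh2 from -0.11 to 0.29, Aass from -1.80 to 1.76. With no scaling beyond library totals it turned for Pcbd1 (0.054), Uroc1 (0.013), Ftcd (0.068), Dmgdh (0.058), Sardh (0.024). With at least 1 CPM required in 3 libraries it turned for Pcbd1 (0.021), Ftcd (0.026), Dmgdh (0.029). With limma-voom it turned for Acmsd (-0.14), Aadat (-0.72), Csad (-0.037), Aass (-0.51). Under the replicate block it turned for Acmsd (-0.12), Aadat (-0.68), Csad (-0.031), Prodh (-0.022), Aass (-0.99). Ido2 has no value with at least 1 CPM required, as that filter removed it. Depth limits Ido2 most, the only enzyme with under 10 expected counts in a library.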

Other observations

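Transcription factors and receptors that are known to drive hepatocyte genes were described as a list of 17. Of these 6 had log2 differences above 0 and 11 below, with a median of -0.14 (-0.41 without GSK3326595 replicate 2). With all libraries 2 were lower at an unadjusted edgeR p under 0.05 (11.8%, against 3.81% of all genes) and 1 of the 17 higher (5.45% of all genes). The groups did not overlap for 3 (17.6%, against 14.4%). Without GSK3326595 replicate 2, 5 were lower (29.4%, against 4.46%) and 1 of the 17 higher (5.59% of all genes), and 0 passed the adjustment in either fit. Hnf4a averaged 521 ± 21.7 CPM with vehicle and 472 ± 55.6 with the inhibitor, and Nr3c1, the glucocorticoid receptor, 139 ± 19.8 and 124 ± 39.2 CPM (SD, n = 3 each). The members of this list with such a p with all 6 libraries, and Klf15, are named after their values were seen. Foxo1, which mediates fasting responses, had 82.2, 92.0 and 69.1 CPM in vehicle and 54.6, 48.1 and 54.4 CPM in GSK3326595, so every treated library was below every vehicle library (-0.63 ± 0.17, edgeR adjusted p = 0.458). Onecut1, a hepatocyte factor, differed by -0.54 ± 0.20 (edgeR adjusted p = 0.522) and also did not overlap. Foxa1 was scarce in vehicle, with 0.255, 0.272 and 0.507 CPM, and had 0.774, 7.38 and 3.36 CPM in GSK3326595 (3.46 ± 0.84, edgeR adjusted p = 0.455, DESeq2 adjusted p = 0.00335). Its lowest library held 8 expected counts, and it passed the filter on low counts only through the treated libraries. Its place among the higher and non-overlapping genes was thus partly set by the filter. Klf15, a regulator of amino acid breakdown, had 83.2, 93.3 and 51.3 CPM in vehicle and 38.5, 74.9 and 24.9 CPM in GSK3326595; the groups overlapped (-0.72 ± 0.43; -1.22 ± 0.33 without replicate 2).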
